A study of Mus musculus with 12 samples.

Results

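The genes described here carry the symbols of adhesion, orphan and several small-ligand or peptide G protein-coupled receptors. Members were chosen by a rule on symbols that used no measured value. The rule and the roles were set with earlier results of these data known. A symbol in the deposited tables qualified if it began with Gpr and a digit, Gprc, Lphn, Bai and a digit, S1pr, Lpar, Ptger, P2ry or Sstr, or if it read Npy or Mc, a digit and r. The rule found 74 of the 12098 genes listed in any library: 43 with a Gpr number, 3 Gprc, 2 Lphn, 3 Bai, 5 S1pr, 3 Lpar, 4 Ptger, 3 P2ry, 5 Sstr and 2 Npy receptor genes, and Mc3r. A Gpr number is a naming convention, and 8 members with one encode membrane proteins that are not classical receptors; these were described apart.

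The samples were colon epithelial cells of 6 C57BL/6 mice. In the 3 induced mice, expression of Dnmt3b, a methyltransferase that adds methyl groups to unmethylated CpGs, was switched on by doxycycline at 0.5 g/l in the drinking water for 3 months, with the water changed every 3 days. The 3 control mice drank regular water, so doxycycline and the induction of Dnmt3b cannot be told apart. The labels state neither whether control mice carried the transgene, nor the promoter that drives it, nor age or sex. DNA was cut with MspI, an enzyme that cleaves CCGG whether or not the inner cytosine is methylated, and 2 libraries per mouse were made for bisulfite sequencing, one of short fragments (40 to 120 nt) and one of long fragments (120 to 220 nt). A level is the mean methylation of the CpGs measured in a gene's promoters, in percent. Values of single mice are given in the order of mice 1, 2 and 3, an error is the SD over n = 3 mice, and a difference is induced minus control in percentage points.

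G protein-coupled receptors span the membrane with 7 helices and pass a signal from outside the cell to a heterotrimeric G protein, which acts on adenylyl cyclase, phospholipase C or ion channels. Receptor kinases and arrestins then end the signal. Adhesion receptors add a long, self-cleaving extracellular region that binds matrix or neighbouring cells, and orphan receptors have no agreed ligand. In the colon, prostaglandin E2, lysophospholipids, nucleotides, somatostatin and peptide YY act through members of this superfamily on fluid secretion, barrier function and epithelial growth. Expression was not measured here, and promoter methylation is not a measure of it.

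Most of these promoters were unmethylated or nearly so in control mice and gained methylation in induced mice. In the short fragments 60 members had a value in all 6 libraries, and 41 of them (68.3%) rose at an adjusted p under 0.05 (limma), against 27.6% of all 10027 genes tested. Of 28 members tested in the long fragments 20 (71.4%) rose, against 23.2% of 6127 genes. No member fell in either fraction, by the adjusted p or at an unadjusted p under 0.05 (limma), where 0.0798% of all genes fell in the short and 0.0163% in the long fragments. The lowest induced mouse exceeded the highest control mouse for 47 members in the short (78.3%, against 39.5% of all genes) and 23 in the long fragments (82.1%, against 38.2%). The opposite order was found for 0 members, against 0.908% and 0.277% of all genes. The long-fragment count was 11, 12 and 11 without control mouse 1, 2 or 3. A fit without 1 library has fewer values for every gene, and the share of all genes in these fits is not given here. These counts therefore do not show whether the loss is particular to the members. Of the 74 members 65 were tested in at least 1 fraction, and 9 (Gpr6, Gpr56, Gpr85, Gpr110, Gpr158, Gpr182, P2ry4, Npy1r and Mc3r) in neither, since they lacked a value in at least 1 library of each.

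The mean over the 60 members was 8.87%, 7.73% and 9.45% in the control mice and 42.2%, 44.3% and 49.1% in the induced mice, or 8.68% ± 0.876 against 45.2% ± 3.55. The groups did not overlap. Over all 10027 genes the means were 4.19% and 17.2%. The median difference was 45.6 points over the members and 0.50 points over all genes. The members' long-fragment means were 4.80%, 4.37% and 5.31% in the control and 40.6%, 43.9% and 50.6% in the induced mice, with a median difference of 46.4 points against 0.943 over all 6127 genes. The sets of members measured in the short and long fragments differ, so their levels are not compared here.

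The gain was uneven among members. Of the 48 members below 10% in control mice in the short fragments, 25 (52.1%) reached 50% or more in induced mice, 8 lay from 10% to under 50%, and 15 stayed below 10%. Among all genes that started below 10%, 14.1% reached 50%. The corresponding long-fragment counts were 11 (44.0%, against 14.8% of all genes), 9 and 5 of 25 members. A level between 0% and 100% in these bulk samples cannot separate a share of cells with methylated promoters from partial methylation of each promoter. The depth behind a value is unknown, so 0% can stand for a small number of reads.

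**Figure D1:**
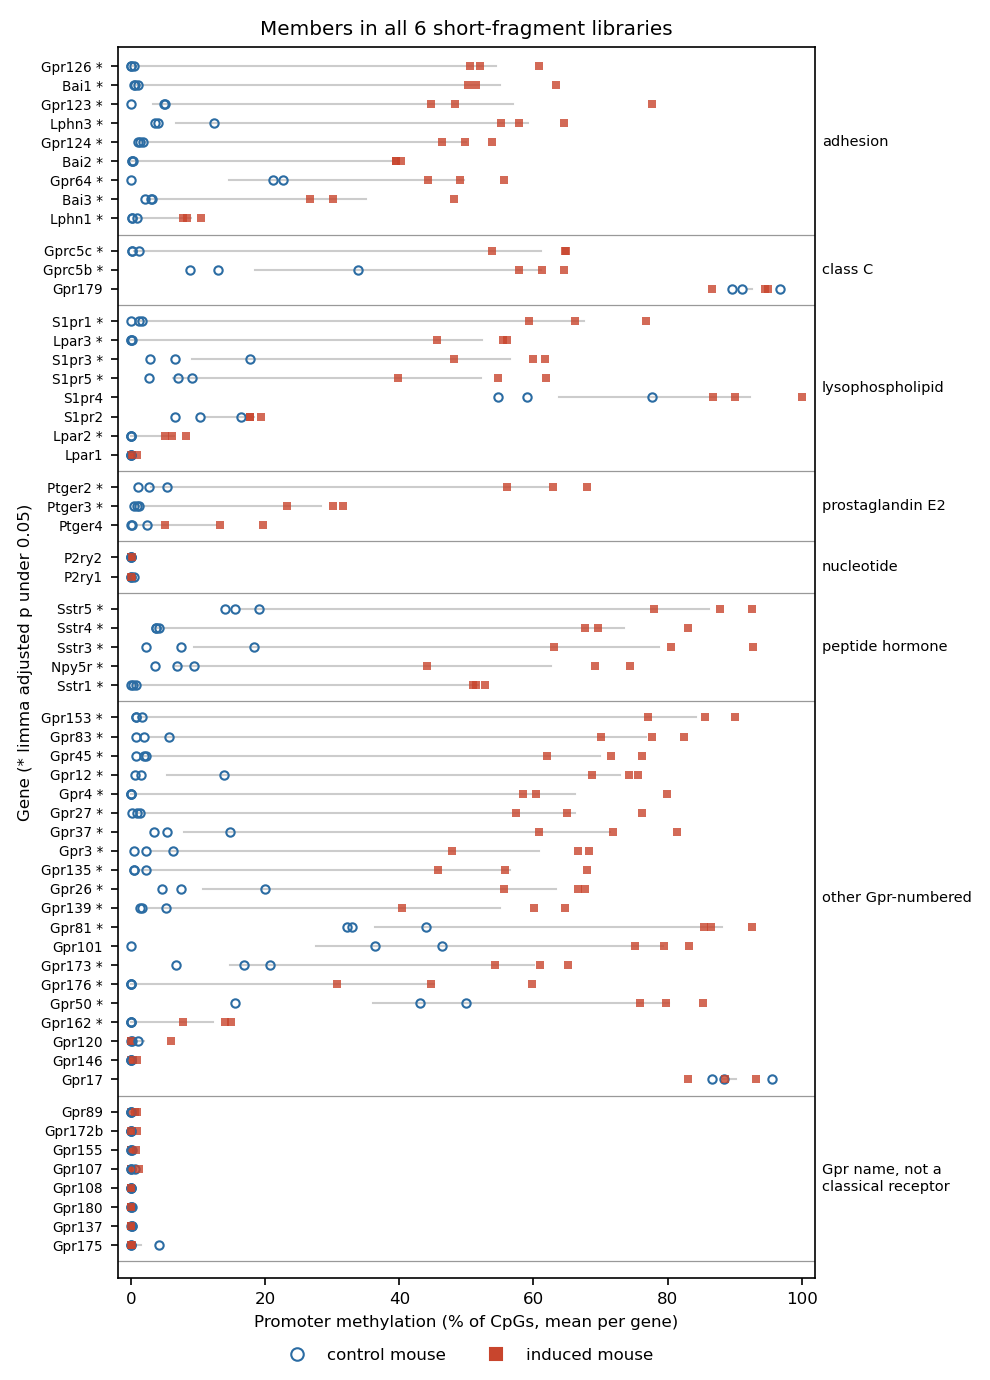
Promoter methylation of 58 of the 60 members in the short fragments, in percent (horizontal axis), with each member on its own line and grouped by role. Open circles are the 3 control mice, filled squares the 3 induced mice, and an asterisk marks an adjusted p under 0.05 (limma). Members of most receptor groups moved from near 0% to 40% or more, whereas the genes that are not classical receptors, P2ry1, P2ry2 and Lpar1 stayed near 0% in both groups.

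Promoter sequences are shown for 5 members, chosen after their values were seen, to set a promoter that gained methylation beside promoters that stayed unmethylated or were methylated throughout. They come from RefSeq on GRCm38.p6 and run from 250 bases before to 50 after the gene start, 5′ to 3′ on the gene's strand, with every CpG in capitals. The genome build and promoter window of the deposited levels are not stated, so these windows may not be the ones measured. Gpr126 (chr10:14544987-14545286, minus strand), an adhesion receptor needed for Schwann cell myelination, rose from 0.05%, 0.37% and 0% to 52.1%, 50.5% and 60.9%. Lpar3 (chr3:146220711-146221010, plus strand), a lysophosphatidic acid receptor, rose from 0.15%, 0.03% and 0% to 55.4%, 45.6% and 56.0%. P2ry1 (chr3:61002535-61002834, plus strand), an ADP receptor, stayed near 0%, and so did Gpr107 (chr2:31152066-31152365, plus strand), a protein of the Golgi and vesicle traffic. Gpr179 (chr11:97352307-97352606, minus strand), an orphan receptor of retinal bipolar cells, was above 86% in all 6 mice.
Gpr126: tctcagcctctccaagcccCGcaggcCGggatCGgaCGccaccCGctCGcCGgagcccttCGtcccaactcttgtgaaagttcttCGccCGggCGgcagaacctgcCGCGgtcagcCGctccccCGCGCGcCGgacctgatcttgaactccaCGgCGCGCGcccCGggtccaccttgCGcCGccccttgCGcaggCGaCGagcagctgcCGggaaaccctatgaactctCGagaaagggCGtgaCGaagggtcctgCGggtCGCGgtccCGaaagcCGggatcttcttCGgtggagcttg
Lpar3: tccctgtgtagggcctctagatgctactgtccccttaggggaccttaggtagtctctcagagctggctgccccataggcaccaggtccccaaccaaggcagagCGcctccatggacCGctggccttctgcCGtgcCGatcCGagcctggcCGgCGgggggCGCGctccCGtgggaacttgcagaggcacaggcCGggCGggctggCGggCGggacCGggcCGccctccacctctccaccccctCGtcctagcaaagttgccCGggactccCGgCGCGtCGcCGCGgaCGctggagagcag
P2ry1: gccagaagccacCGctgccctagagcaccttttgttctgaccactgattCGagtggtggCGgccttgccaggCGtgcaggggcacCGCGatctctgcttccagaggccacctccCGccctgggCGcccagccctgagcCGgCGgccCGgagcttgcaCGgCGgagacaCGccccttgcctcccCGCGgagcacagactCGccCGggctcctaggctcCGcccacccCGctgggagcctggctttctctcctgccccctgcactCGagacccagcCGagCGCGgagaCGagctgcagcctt
Gpr107: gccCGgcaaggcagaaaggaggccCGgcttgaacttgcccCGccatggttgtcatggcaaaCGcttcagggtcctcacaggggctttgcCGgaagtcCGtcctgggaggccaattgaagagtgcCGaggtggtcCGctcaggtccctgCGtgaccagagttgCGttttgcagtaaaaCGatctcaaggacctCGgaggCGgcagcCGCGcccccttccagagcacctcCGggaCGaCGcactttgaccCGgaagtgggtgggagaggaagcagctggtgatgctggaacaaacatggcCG
Gpr179: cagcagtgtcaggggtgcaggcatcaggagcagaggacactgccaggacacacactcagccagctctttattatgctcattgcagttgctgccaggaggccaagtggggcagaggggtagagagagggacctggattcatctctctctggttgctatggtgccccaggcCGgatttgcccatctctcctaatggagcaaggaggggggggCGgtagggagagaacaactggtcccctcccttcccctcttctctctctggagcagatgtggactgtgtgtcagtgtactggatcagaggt

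The windows hold 38 CpGs in Gpr126, 25 in Lpar3, 25 in P2ry1, 20 in Gpr107 and 2 in Gpr179. Lpar3 and P2ry1 therefore have the same number of CpGs and differed in outcome, at 52.3% ± 5.84 against 0.0967% ± 0.0950 in induced mice. The letters CCGG, the MspI site, which reads the same on both strands and contains a CpG, occurred 7, 5, 3, 5 and 1 times in the windows of Gpr126, Lpar3, P2ry1, Gpr107 and Gpr179. Windows were matched by gene ID for 56 of the 74 members, 70 windows in all, of which 78.6% held CCGG, against 52.8% of 32817 windows of all genes in the table. A gene needs MspI fragments to be measured at all, so members were selected for such sites, and the windows of all genes were not. Tested genes are the closer comparison. Of those below 10% in both groups in the short fragments, 12 of 14 members with a window held CCGG, against 5158 of 5568 genes. For those that went from below 10% to under 50% the counts were 3 of 5 and 630 of 690. For those that reached 50% or more they were 18 of 18 and 823 of 944.

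The number of CpGs in the window was set beside the outcome. In the short fragments, members below 10% in both groups had a median of 19.5 CpGs (14 of 15 with a window, range 11 to 29), and members that went from below 10% to 50% or more had a median of 21 (18 of 25, range 3 to 38.5 where windows of a gene were averaged). Members that reached 10% to under 50% had a median of 25 (5 of 8 with a window). Over all genes the medians were 24 for no gain, 21 for the middle class and 20 for 50% or more. Medians of the members in the long fragments were 19 (3 of 5 with a window), 28 (7 of 9) and 23.5 (6 of 11) in the same order, against 25, 23 and 22 over all genes. Across the 37 members with a window that were below 10% in control mice in the short fragments, 2 coefficients were computed. CpG number and the difference had a Pearson r of 0.048 and a Spearman rho of -0.079. Over all 7202 such genes they were -0.125 and -0.136. In the long fragments they were 0.164 and 0.122 over 16 members, and -0.108 and -0.112 over 4202 genes. These are descriptions across genes that share libraries. In the short fragments the 2 members with a window that were at 50% or more in control mice had 1 and 2 CpGs. The 1 such member in the long fragments, Sstr2, had 27.

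**Figure D2:**
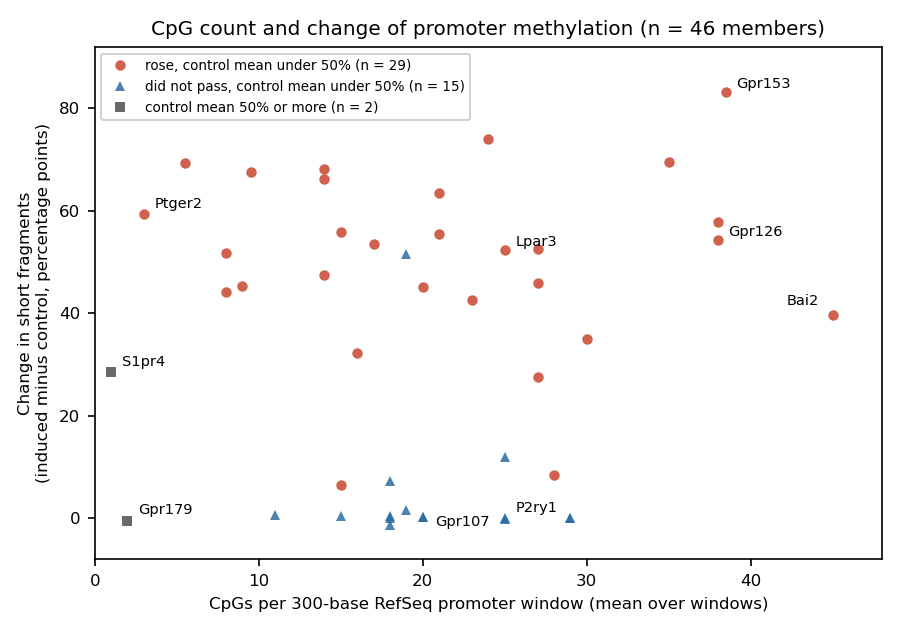
Number of CpGs in the RefSeq promoter window (horizontal axis, mean over a gene's windows) against the difference, induced minus control, in percentage points in the short fragments (vertical axis), for the 46 members with a window that were tested. Point style separates members that rose (29), members that did not pass (15) and members at 50% or more in control mice (2). Members with 20 to 25 CpGs lie both near 0 and above 50 points.

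All 9 adhesion receptors tested in the short fragments rose, against 27.6% of all genes. So did all 6 tested in the long fragments, against 23.2%. Bai1, which recognises phosphatidylserine on dying cells, went from 0.62%, 1.07% and 0.39% to 50.2%, 51.4% and 63.4% on induction, a difference of 54.3 points (SE 3.97, adjusted p = 0.000904). Bai2, a brain receptor of the same subfamily, gained 39.6 points (SE 0.246, adjusted p = 4.21e-06), and its induced mice at 39.6%, 40.3% and 39.5% lay within 1 point of each other. Its long-fragment values were 66.8%, 36.3% and 31.5% in induced mice, so that induced mouse 1 stood apart there (difference 44.7 points, adjusted p = 0.0461). Bai3, which binds C1q-like proteins at synapses, rose by 32.3 points in the short fragments (adjusted p = 0.0203), with induced mouse 1 highest at 48.1% against 30.2% and 26.7%.

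The latrophilins are receptors at synapses, and Lphn1 binds the black widow toxin latrotoxin. Lphn3 rose to 59.2% ± 4.86 in the short and 65.5% ± 7.81 in the long fragments from 6.69% ± 4.96 and 3.19% ± 2.61. Lphn1 gained the least of the adhesion receptors: control mice were at 0.14%, 0.94% and 0.17% and induced mice at 10.5%, 7.80% and 8.32% in the short fragments, a difference of 8.46 points (SE 0.819, adjusted p = 0.00201). Its induced level stayed low, yet the groups did not overlap. Lphn1 in the long fragments went from 2.14% ± 0.505 to 18.9% ± 5.13.

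Gpr124, a co-receptor of Wnt7 in brain endothelium, gained 48.6 points (SE 2.08, adjusted p = 0.000292), with induced mice at 46.3%, 49.7% and 53.9%. Gpr123 rose by 53.6 points (adjusted p = 0.0177), with induced mouse 3 at 77.7% against 44.7% and 48.3%. Gpr98, the very large receptor of hair cells and photoreceptors that is mutated in Usher syndrome, was tested in the long fragments and rose from 13.1%, 5.08% and 0.38% to 70.4%, 79.9% and 78.3%. The X-linked Gpr64, which is known from the epididymis, rose from 22.7%, 0% and 21.1% to 44.3%, 49.0% and 55.6% (35.1 points, adjusted p = 0.0288). Several of these calls were lost when 1 library was left out. Bai3 had adjusted p values of 0.0836, 0.0780 and 0.0800 and Gpr123 of 0.0709, 0.0753 and 0.0703 without control mouse 1, 2 or 3. The p of Gpr64 was 0.0565 and 0.0676 without control mouse 1 or 3 and 0.0595, 0.0904 and 0.0964 without induced mouse 1, 2 or 3. Among long-fragment calls Bai2 (0.150, 0.148 and 0.149) and Lphn1 (0.0724, 0.0759 and 0.0754) lost the call without control mouse 1, 2 or 3, as Bai2 did without induced mouse 2 or 3 (0.0897 and 0.0547) and Lphn1 without induced mouse 3 (0.0573). Gpr110 and Gpr56 were listed in too few libraries to be tested; Gpr110 was at 71.4% and 78.6% in 2 control mice, and Gpr56 at 92.6% in 1 induced mouse.

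**Figure D3:**
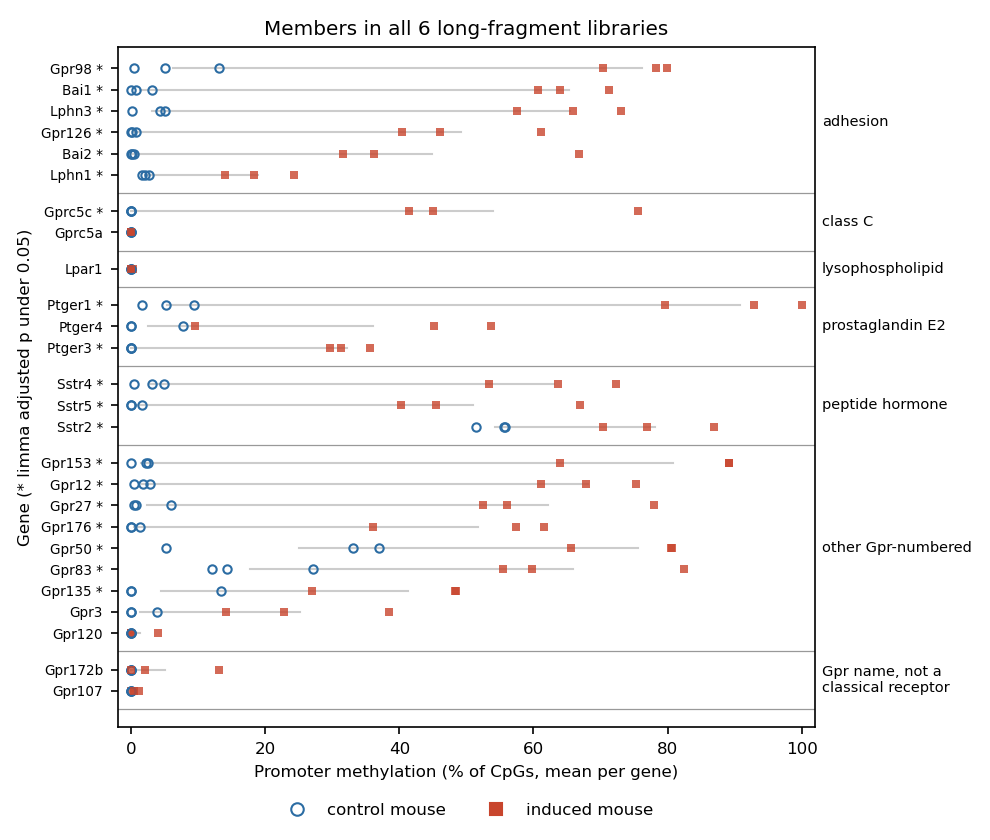
Promoter methylation of 26 of the 28 members in the long fragments, in percent, laid out as for the short fragments, with open circles for the 3 control mice, filled squares for the 3 induced mice and an asterisk for an adjusted p under 0.05 (limma). The induced mice spread more widely than the control mice, as in Bai2 and Ptger4.

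Class C receptors are related to the metabotropic glutamate receptors, and the Gprc5 genes among them are induced by retinoic acid. Gprc5c moved in the short fragments from 1.14%, 0.14% and 0.12% to 53.8%, 64.7% and 64.9%, and rose by 60.6 points (SE 3.48, adjusted p = 0.000531). Gprc5b rose from 12.98%, 33.8% and 8.83% to 64.5%, 57.8% and 61.2% (adjusted p = 0.0147), and control mouse 2 was the highest control. Gprc5a, in contrast, was measured in the long fragments and was at 0% in all 6 mice. Gpr179 was already methylated, at 92.5% ± 3.77 in control and 92.03% ± 4.69 in induced mice (adjusted p = 0.956). Gpr158, another retinal and brain orphan, was listed in 1 induced mouse at 99.5%. The call of Gprc5b was lost without control mouse 1 (adjusted p = 0.0654), induced mouse 1 (0.0522) or induced mouse 3 (0.0565). That of Gprc5c in the long fragments, where it went from 0% in every control mouse to 41.4%, 44.97% and 75.5%, was lost without control mouse 1, 2 or 3 (0.0953, 0.0949 and 0.0955) or induced mouse 2 (0.0551). Its difference stayed at 53.98 points without any 1 control mouse, so there the call was lost with an unchanged difference and fewer values.

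Among the lysophospholipid receptors 5 of 8 rose in the short fragments, against 27.6% of all genes, and the outcome was split within both families. S1pr1, the sphingosine 1-phosphate receptor that lets lymphocytes leave lymph nodes, went from 0%, 1.68% and 1.22% to 66.2%, 59.4% and 76.8% (difference 66.5 points, SE 4.81, adjusted p = 0.000881). S1pr3 reached 56.6% ± 7.37 from 9.06% ± 7.79 and S1pr5 52.1% ± 11.2 from 6.29% ± 3.31 (adjusted p = 0.00431 and 0.00647). S1pr2 had control levels of 10.3%, 16.5% and 6.53% and induced levels of 19.3%, 17.7% and 17.8% and did not pass (adjusted p = 0.161), though the groups did not overlap. S1pr4, a receptor of blood cells, was the sphingosine receptor with the highest control level, at 54.7%, 59.1% and 77.7%, against 100%, 90.1% and 86.8% in induced mice (adjusted p = 0.0580). Leaving out control mouse 2 brought S1pr2 past the threshold (adjusted p = 0.0226), and leaving out control mouse 3 did so for S1pr4 (0.0213), which also passed with all libraries under a trended robust variance (0.0372).

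The lysophosphatidic acid receptors showed 3 outcomes. Lpar3 rose by 52.3 points (SE 3.18, adjusted p = 0.000598). Lpar2 was at 0% in every control mouse and at 6.13%, 5.03% and 8.17% in induced mice, a small rise that passed (6.44 points, SE 0.869, adjusted p = 0.00586). Lpar1 was at 0% in every control mouse and at 0%, 0.90% and 0.13% in induced mice (adjusted p = 0.506), and at no more than 0.35% in any long-fragment library (adjusted p = 0.584). S1pr3 and S1pr5 were listed in some long-fragment libraries only: S1pr5 was at 0.09% and 0% in 2 control mice and 1.79% and 28.1% in 2 induced mice.

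The 4 prostaglandin E2 receptors differ in the G protein they use: Ptger2 and Ptger4 raise cyclic AMP, Ptger3 lowers it and Ptger1 raises calcium. Ptger1, tested in the long fragments, had the largest difference of any member there, from 5.21%, 1.59% and 9.34% to 100%, 79.6% and 92.8% (85.4 points, SE 6.06, adjusted p = 0.00164). Ptger2 rose from 5.33%, 2.65% and 1.04% to 56.0%, 68.0% and 62.9% in the short fragments (59.3 points, adjusted p = 0.000545). Ptger3 stopped at a lower level, 28.3% ± 4.45 in the short and 32.2% ± 3.09 in the long fragments, from 0.857% ± 0.356 and 0% (adjusted p = 0.00154 and 0.000924). Ptger4, the receptor through which prostaglandin E2 acts on colon epithelium, had short-fragment control levels of 0.02%, 2.44% and 0.13% and induced levels of 19.7%, 13.3% and 5.11%. It did not pass there (adjusted p = 0.118), nor in the long fragments (0.179), where its induced values were 9.55%, 53.6% and 45.2%. Both outcomes changed with the library and the model: Ptger4 passed in the short fragments without induced mouse 3 (adjusted p = 0.0208) and, with all libraries, on the arcsine (0.0401) and log2 odds scales (0.0329). It passed in the long fragments without induced mouse 1 (0.00741) and in the single fit over both fractions (0.0305).

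The nucleotide receptors measured in the short fragments stayed unmethylated. P2ry2, which responds to ATP and UTP and drives chloride secretion in epithelia, had no value above 0.08% in any mouse, and P2ry1 none above 0.39% (adjusted p = 1 and 0.709). The UTP receptor P2ry4, which is X-linked and was listed in 4 long-fragment libraries, was at 73.1% and 98.7% in 2 control mice and 77.5% and 87.8% in 2 induced mice.

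All 5 peptide receptors tested in the short fragments rose, against 27.6% of all genes. Of these, 4 are receptors of somatostatin, the peptide that restrains hormone and fluid secretion in the gut. Sstr1 was at 0.04%, 0.75% and 0.24% in control mice, and its induced values of 51.4%, 51.0% and 52.8% were among the closest together of the members that rose (51.4 points, SE 0.554, adjusted p = 1.79e-05). Sstr4 rose by 69.6 points (SE 4.53, adjusted p = 0.000690) and Sstr3 by 69.4 points (SE 9.28, adjusted p = 0.00569), with Sstr3 in induced mice spread over 63.0%, 92.7% and 80.5%. Sstr5 went from 15.4%, 19.1% and 13.98% to 92.5%, 78.0% and 87.9% in the short fragments. The same gene in the long fragments went from 0%, 0% and 1.57% to 40.3%, 45.5% and 67.0%, lower in both groups. Sstr2, tested in the long fragments, was partly methylated in control mice at 55.7%, 55.6% and 51.4% and rose to 70.3%, 77.0% and 86.9% (23.8 points, SE 4.78, adjusted p = 0.0286).

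Npy5r, a receptor of neuropeptide Y and peptide YY, rose from 6.87%, 9.38% and 3.59% to 44.1%, 69.2% and 74.4% (adjusted p = 0.0106), a call lost without control mouse 1 (0.0513) or 3 (0.0530). Npy1r and the melanocortin receptor Mc3r were not tested: Npy1r was at 12% and 9.94% in 2 control mice and 49.0% and 91.3% in 2 induced mice, and Mc3r at 33.3% and 49.3% in 2 control mice and 50%, 67.7% and 65.4% in induced mice. The long-fragment call of Sstr5 did not hold without control mouse 1, 2 or 3 (adjusted p = 0.0626, 0.0628 and 0.0606), nor did that of Sstr2 without control mouse 1, 2 or 3 (0.0971, 0.0977 and 0.111) or induced mouse 2 (0.0873).

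Of the other receptors with a Gpr number, 17 of 21 rose in the short and 8 of 11 in the long fragments. The shares of all genes were 27.6% and 23.2%. Gpr153, an orphan receptor, had the largest difference of any member in the short fragments: control mice were at 0.75%, 1.58% and 0.73% and induced mice at 77.1%, 85.5% and 90.0% (83.2 points, SE 3.58, adjusted p = 0.000292). Gpr83, an orphan of brain and regulatory T cells, rose by 73.9 points to 70.1%, 77.6% and 82.5%. Gpr4, which senses protons and is known from endothelium, went from 0% in every control mouse to 60.3%, 58.5% and 79.9% (66.2 points, SE 6.47, adjusted p = 0.00207). Gpr12 and Gpr3, which raise cyclic AMP without an added ligand, rose by 67.5 and 57.9 points (adjusted p = 0.000718 and 0.00302). Gpr45, Gpr27 and Gpr37, brain receptors, rose by 68.2, 65.4 and 63.5 points, and the orphans Gpr135, Gpr26 and Gpr139 by 55.5, 52.6 and 52.3 points. Gpr81, the lactate receptor, started at 32.9%, 32.2% and 44.0% and reached 86.4%, 85.5% and 92.6% (51.8 points, SE 4.18, adjusted p = 0.00118).

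A smaller rise was that of Gpr162 by 12.2 points (adjusted p = 0.0138), from 0% in every control mouse to 14.01%, 7.75% and 14.85%. Gpr120, the receptor of long-chain fatty acids on gut endocrine cells, was at most 5.95% in any short-fragment and 4.09% in any long-fragment library, and did not pass (adjusted p = 0.628 and 0.584). Gpr146 stayed below 1% in all 6 mice. Gpr17, a receptor of oligodendrocyte precursors, was methylated throughout, at 90.2% ± 4.73 in control and 88.2% ± 5.04 in induced mice (adjusted p = 0.764). Gpr182 was high as well, at 94.5% and 86.5% in 2 control mice and 90.8%, 95.3% and 99.1% in induced mice of the long fragments, where it was not tested. The calls of Gpr162 (adjusted p = 0.0621, 0.0599 and 0.0610) and of Gpr176 (0.0639, 0.0616 and 0.0627), which rose to 45.1% ± 14.5 from 0%, were lost without control mouse 1, 2 or 3, and that of Gpr176 also without induced mouse 2 (0.0544). Every control value of both was 0%, so their differences stayed at 12.2 and 45.1 points without any 1 control mouse. Gpr85, another brain orphan, was at 0% in 2 control mice and 48.5%, 21.4% and 26.2% in induced mice, and Gpr6, a relative of Gpr3 and Gpr12, was listed in 1 control library at 11.1%.

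Several long-fragment calls of these genes changed when 1 library was left out. Gpr83 had adjusted p values of 0.0980, 0.0599 and 0.0971 without control mouse 1, 2 or 3 and 0.0627 without induced mouse 2, against 0.0238 with all libraries. For Gpr135 they were 0.136, 0.134 and 0.0717 without control mouse 1, 2 or 3 and 0.112 and 0.110 without induced mouse 2 or 3, against 0.0370. The p of Gpr176 was 0.0563, 0.0564 and 0.0549 without control mouse 1, 2 or 3, against 0.0112. Gpr3 did not pass (adjusted p = 0.0822), but passed without induced mouse 1 (0.0433) or 3 (0.0472) and, with all libraries, on the arcsine (0.0267) and log2 odds scales (0.0246) and in the single fit over both fractions (0.0211).

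Control mouse 2 was the lowest control for the X-linked members that were tested. Gpr50, related to the melatonin receptors, was at 49.9%, 15.45% and 43.1% in control mice in the short fragments, Gpr101 at 46.4%, 0% and 36.4%, Gpr173 at 20.7%, 6.67% and 16.8%, and Gpr64 as above. The same held for Gpr50 in the long fragments (36.9%, 5.25% and 33.1%). P2ry4, which was not tested, had the opposite order in the 2 control mice that listed it, 73.1% in mouse 1 and 98.7% in mouse 2. Control mouse 2 also had the lowest mean over the 229 X-linked genes tested, 5.37% against 35.3% and 34.4%, while the induced mice were at 55.2%, 52.8% and 52.7%. Gpr50 rose by 44.1 points (adjusted p = 0.0371) and Gpr173 by 45.4 (0.00290). Gpr101 had a difference of 51.6 points and did not pass (adjusted p = 0.0533), but passed without control mouse 2 (37.9 points, adjusted p = 0.0138) and, with all libraries, under a trended robust variance (0.0310). The call of Gpr50 was lost without control mouse 3 (0.0914) or any 1 induced mouse (0.0837, 0.109 and 0.120 for mice 1, 2 and 3). Its long-fragment call (50.5 points, adjusted p = 0.0329) was lost without control mouse 1 (0.0661) or 3 (0.0863), and likewise without any of the induced mice (0.0573, 0.109 and 0.106). With X-linked genes left out, an alternative chosen after the data were seen, 38 of 56 members rose in the short and 19 of 27 in the long fragments. With them it was 41 of 60 and 20 of 28 members, and 27.6% and 23.2% of all genes. The share of all genes without the X-linked ones is not given here.

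None of the 8 members that are not classical receptors passed in the short fragments (limma, and 0 at an unadjusted p under 0.05). Of the other 52 members 41 rose, and of all genes tested 27.6%. The difference between these shares was not tested, and the roles were chosen with earlier results of these data known. All 8 had an induced mean under 10%, as did 68.6% of all genes. The 8 are Gpr89, which regulates Golgi pH, Gpr107 and Gpr108 of the Golgi, the lysosomal proteins Gpr137 and Gpr155, the riboflavin transporter Gpr172b, Gpr175 and Gpr180. The highest value among them in any short-fragment library was 4.21%, for Gpr175 in control mouse 3. Gpr108 was at 0% in all 6 mice. Gpr107 and Gpr172b were tested in the long fragments and did not pass (adjusted p = 0.402 and 0.527), with Gpr172b at 13.1%, 2.04% and 0% in induced mice. Gpr89 passed when induced mouse 1 was left out, with a difference of 0.78 points (adjusted p = 0.0232). Gpr172b had the same values as Fbxl6 and Gpr137 the same as Bad, so those levels are not separate measurements.

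**Figure D4:**
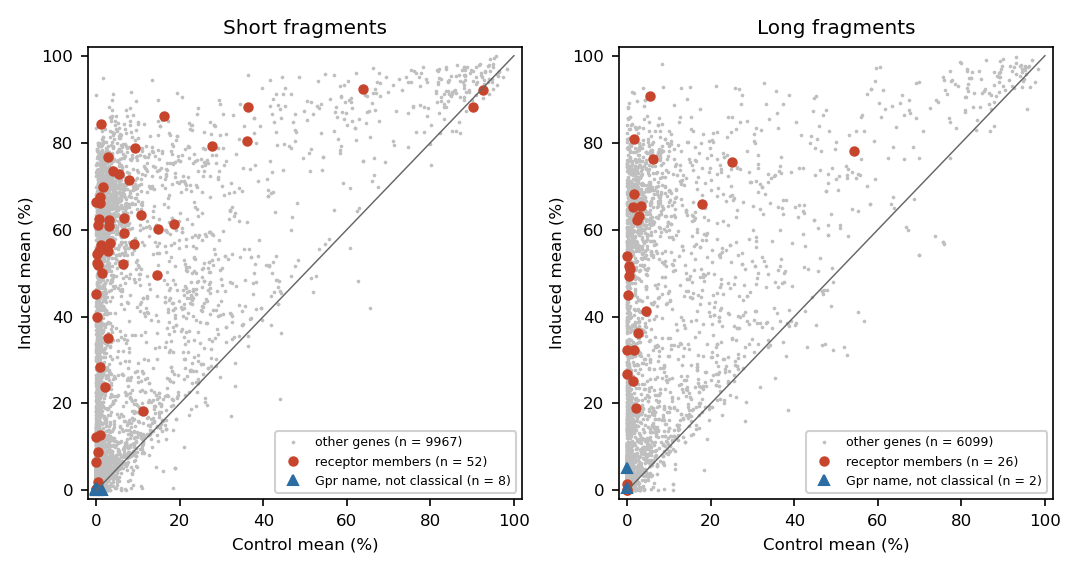
Mean promoter methylation in control mice (horizontal axis, percent) against the mean in induced mice (vertical axis, percent) for the short and the long fragments, n = 3 mice per group. Coloured points are members and grey points all other genes tested. Most members lie at the left edge and are spread over the whole height, and Gpr179 and Gpr17 lie near the diagonal at the upper right.

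Spread between mice grew with the gain. For the 35 short-fragment members whose induced mean lay between 20% and 80%, the median SD was 1.03 points in control and 7.23 in induced mice, and for 20 such members in the long fragments it was 1.90 and 11.5. The tests assume 1 spread for both groups. Induced mouse 3 was the highest of the induced mice for 31 of the 42 members with an induced mean of 20% or more in the short fragments (73.8%, against 59.5% of all such genes), and induced mouse 1 the lowest for 25 (59.5%, against 52.0%). For long fragments mouse 1 was lowest for 16 of 22 (72.7%, against 48.3%) and mouse 3 highest for 12 (54.5%, against 57.9%). Mouse 1 was thus most often the lowest and mouse 3 most often the highest in both fractions, among members and among all genes.

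Of the 23 members with values in all 12 libraries, 17 rose in both fractions when each was fitted alone and 5 in neither. Gpr3 rose in the short fragments but not in the long, where its call varied as above. The shares of all genes with these calls are not given here, so the counts do not show whether they are particular to the members. Whether the gain differed between fractions was tested as an interaction with the mouse as a block. None of the 23 passed (limma), against 4.71% of 5309 genes, and 4 had an unadjusted p under 0.05 (17.4%, against 14.5% of all genes). Among the smallest p values were those of Gpr3, whose gain was smaller in the long fragments (difference -34.04, SE 8.996, adjusted p = 0.0768), and of Lphn1, with 8.27 points more in the long fragments (adjusted p = 0.188). Gpr3 reached 47.8%, 66.6% and 68.2% in the short and 14.2%, 22.8% and 38.5% in the long fragments of the induced mice. Leaving out 1 induced library brought up to 4 members past the threshold, among them Gpr3 without the short-fragment library of mouse 1 (adjusted p = 0.0225), Ptger4 and Lphn1 without the long-fragment libraries of mouse 1 and mouse 2 (0.00866 and 0.0174), and Gpr83, Gpr3, Sstr5 and Gprc5c without that of mouse 3 (0.0211, 0.0198, 0.0193 and 0.0470).

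**Figure D5:**
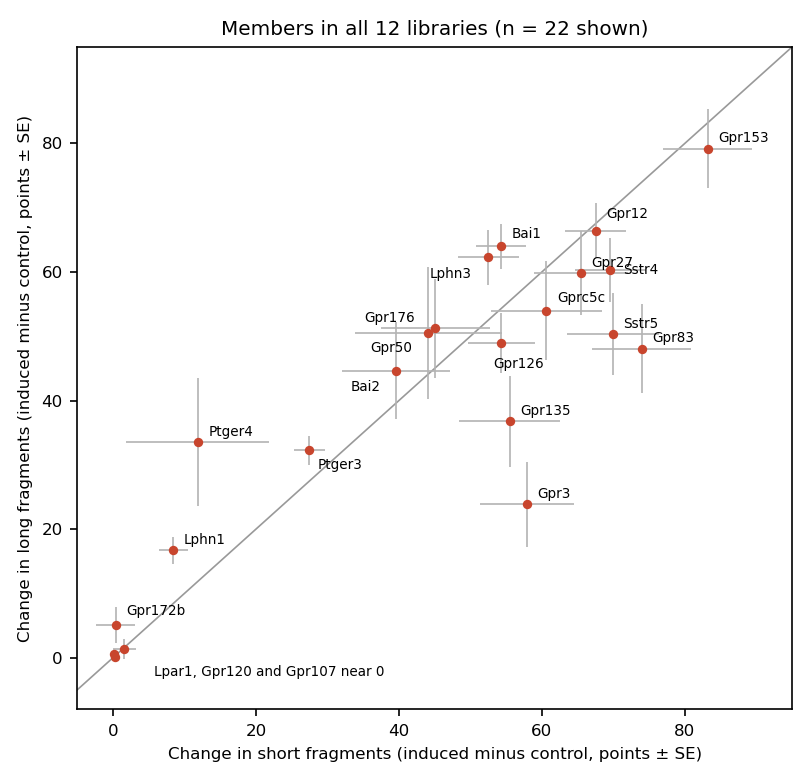
Difference, induced minus control, in percentage points in the short (horizontal axis) against the long fragments (vertical axis) for 22 of the 23 members measured in all 12 libraries; bars are standard errors of the fit over both fractions and the line marks equal differences. Of the 17 plotted members that rose in at least 1 fraction, 10 had the larger difference in the short and 7 in the long fragments.

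Genes that act before and after the receptors were counted on 4 lists, and none of those tested fell (limma). Of 20 ligands and ligand-making enzymes in the short fragments 6 rose (30%, against 27.6% of all genes, with a median difference of 3.00 points), a share near that of all genes. Pyy, which encodes the colon hormone peptide YY, rose from 3.70%, 0.98% and 0% to 92.6%, 68.7% and 63.3%, and its relative Npy from 5.55% ± 4.70 to 71.9% ± 12.4. Ptgs1, the cyclooxygenase that starts prostaglandin synthesis, rose to 72.6% ± 4.09 in the short and 73.3% ± 6.57 in the long fragments, from 1.90% ± 1.82 and 2.15% ± 3.14. Long-fragment levels rose for 4 of 13 (30.8%, against 23.2% of all genes), among them Sphk1, which makes sphingosine 1-phosphate (14.6% to 45.9%, adjusted p = 0.0431), and Lpcat1 (8.73% to 28.7%).

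G protein subunits rose in 9 of 20 cases in the short (45%, against 27.6% of all genes, median 4.70 points) and 4 of 15 in the long fragments (26.7%, against 23.2%). Examples were the gamma subunits Gng2 (7.29% ± 0.666 to 78.8% ± 20.9) and Gng4 (2.53% ± 2.71 to 59.2% ± 7.21) and the olfactory alpha subunit Gnal (2.31% ± 2.16 to 64.4% ± 7.15). Gnal, the taste cell subunit Gng13 and Gnaz rose in the long fragments to 55.3%, 67.8% and 39.2%. Of 18 receptor kinases, arrestins and RGS proteins, which end the signal, 8 rose in the short (44.4%, against 27.6% of all genes, median 6.26 points) and 6 of 12 in the long fragments (50%, against 23.2%). The receptor kinase Adrbk2 went from 2.36% ± 3.79 to 71.4% ± 11.6, and Rgs6 from 0.737% ± 0.943 to 66.0% ± 6.46. Rgs6 went to 67.3% ± 17.3 from 0.26% ± 0.450 in the long fragments. Rgs16 rose to 62.1% in the short and Rgs8 and Rgs20 to 79.6% and 52.5% in the long fragments.

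Second messenger genes rose in 15 of 24 cases in the short (62.5%, against 27.6% of all genes, median 12.1 points) and 4 of 15 in the long fragments (26.7%, against 23.2%), the latter near the share of all genes. Prkar1b, a regulatory subunit of protein kinase A, went from 3.45% ± 1.49 to 85.8% ± 7.58, and Adcy7, an adenylyl cyclase, from 3.60% ± 1.34 to 85.6% ± 2.50. The phosphodiesterase Pde4a rose to 68.0% ± 9.40 in the short and 75.8% ± 15.3 in the long fragments, from 0.08% ± 0.139 and 2.43% ± 2.28. The cyclases Adcy1 and Adcy5 rose to 61.9% and 56.4% in the long fragments.

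Promoters of cell type markers were described as well, and those of colon epithelium stayed low with the exception of Krt18. Low levels cannot identify the tissue, because promoters of other cell types were low in control mice too. Stromal and endothelial markers in the short fragments had control means from 0.473% (Pdgfra) to 22.8% (Tagln). Of 17 colon epithelial markers 5 were tested in the short fragments, including Cdh1, Cdx1, Cdx2 and Epcam, and none passed (limma). Their mean ranged over mice from 0.0400% to 1.06% in control and 0.148% to 0.620% in induced mice. None of 7 passed in the long fragments, with Krt18 at 22.8% in control and 30.2% in induced mice. Of 17 stromal and endothelial markers 6 of 7 tested rose in the short fragments, against 27.6% of all genes. Their mean there ranged from 7.09% to 8.40% in control and 51.7% to 65.8% in induced mice. In the long fragments 3 of 3 rose, against 23.2% of all genes. Of 19 immune markers 1 was tested in each fraction: Lck had 0.370% in control and 0.113% in induced mice (short fragments), and Coro1a rose from 12.6% to 73.6% in the long fragments. Marker promoter methylation does not measure how many such cells a sample held, and the part of other cell types in the members' gain was not tested.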

How the data were processed

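Reduced representation bisulfite sequencing was carried out on 12 libraries, a short- and a long-fragment library of each of 3 control and 3 induced mice, per the labels' protocols. The authors deposited a table for each library with the methylation fraction (0 to 1) of every listed gene and RefSeq promoter, a mean over CpGs per the file headers. No aligner, genome build, promoter window or coverage filter is given in the sources read for this work. The tables carry no read counts, so depth is unknown and no counting interval was computed. Short-fragment libraries listed 10358 to 10838 genes and long-fragment libraries 7278 to 8108. Unconverted cytosine and hydroxymethylcytosine are read as methylation.

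Fractions were turned into percent. For each fraction, genes with 6 values were tested with limma 3.58.1 in R 4.3.3 (lmFit and eBayes on percent levels), with Benjamini-Hochberg adjustment over all genes of that fraction and a threshold of 0.05. Every adjusted p in the text comes from limma. The interaction was fitted over genes with 12 values, the mouse being a random block (consensus correlation 0.0674). The fits were tested on simulated data. The mice are separate animals. Identical values made up at most 2.525% of nonzero genes between any pair of short-fragment libraries and 2.288% between long-fragment ones, so every library was kept as a separate sample. A gene's value equalled the mean of its promoters within 0.005 points, and the 5 members with several promoter accessions had the same value at each.

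Members, roles, signalling lists and marker lists were chosen with earlier results of these data known. Named genes were, per fraction, the 12 largest rises without overlap between groups, the 5 highest control means, the 5 smallest differences, the measured members of the smaller receptor families, the 3 smallest interaction p values and up to 3 genes per signalling list; others were named by role after their values were seen. Results of 3 members enter the counts and are not reported by name here. Alternatives were an arcsine or log2 odds scale, a trended robust variance, other gene filters, promoters in place of genes, identical values counted once, a minimum difference, a replicate block, 1 fit over both fractions and leaving out each library. Promoter windows came from RefSeq tables of GRCm38.p6. Python 3.11.15, numpy 2.4.6, pandas 2.3.3 and matplotlib 3.10.9 made summaries and figures.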

Additional observations from a re-analysis of the deposited data

How the results depend on the processing

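The groups did not overlap for any member that rose, so its direction could not change on another scale or without 1 library. Calls of single members were followed on the arcsine and log2 odds scales and under a trended robust variance. They were also followed with 2 of 3 libraries per group required, with a replicate block and without each library. Of the 41 members that rose in the short fragments 32 passed under all of these settings, and of 20 in the long fragments 9 did. The minimum difference and the remaining alternatives are not part of these 2 counts. Calls of 8 members in the short and 9 in the long fragments were lost when a library was left out. Leaving out 1 library at a time gave 34 to 39 members in the short and 11 to 21 in the long fragments, 29 to 40 and 10 to 20 signalling list genes (38 and 18 with all libraries), mean member differences of 34.56 to 38.02 and 37.46 to 42.46 points, and 0 to 4 members whose gain differed between fractions. The share of all genes in the fits without 1 library is not given here. Their counts therefore do not show whether a loss is particular to the members. A replicate block on the mouse numbers gave 32 members in the short and 9 in the long fragments, and 27 and 6 list genes. Over all genes the block left 2110 and 651 rises, against 2765 and 1421. The numbers do not pair control with induced mice, which are separate animals. Deviations of same-numbered mice had correlations across genes of 0.0736, 0.00398 and -0.0499 in the short and 0.00102, 0.0366 and 0.0247 in the long fragments, and some libraries correlated better with another number. A single fit over both fractions, which tests fewer genes, gave 18 of 23 members in the short and 19 of 23 in the long fragments. Testing differences on the log2 odds scale gave 1 member whose gain differed between fractions, Ptger3 (adjusted p = 0.0440, limma). The other scales, variance models and filters gave 39 to 44 members in the short and 20 to 22 in the long fragments. For these settings and for the single fit the share of all genes is not given here either. In the long fragments Bai2 lost the call with 2 of 3 libraries per group required, and Gpr135 and Gpr50 on the log2 odds scale. Gpr64 in the short fragments lost it on both the arcsine (adjusted p = 0.0853) and the log2 odds scale (0.196). Short-fragment rises of Lphn1 (8.46 points) and Lpar2 (6.44 points) passed in the main fit but lie below the minimum difference of 10 points. The cause of these losses was not tested. Unknown depth limits every level, and with 3 mice per group the spread of the induced mice rests on 3 values.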
